A study of Bos indicus with 11 samples.

Results

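The amino acid transporter genes of the bovine endometrium were described in biopsies collected on day 6 after artificial insemination (AI) from multiparous Nelore cows (Bos indicus). The genes were chosen by name, as every listed gene whose symbol is a member of the solute carrier (SLC) families 1, 3, 6, 7, 36, 38 or 43. This rule found 53 of the 24616 genes listed, and 44 of them had a mean of at least 5 normalized counts over the 11 cows and were tested. The rule uses no expression difference, although it was set with earlier results of these data known.

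The cows had estrus synchronized and were inseminated at estrus, and the biopsy came from the uterine horn opposite the ovary that carried the corpus luteum. All were healthy, cycling and non-lactating, and those sequenced were picked by the study within a narrow range of plasma progesterone. They were assigned afterwards, by the diagnosis of pregnancy on day 30, to the pregnant group (P, n = 6) or the non-pregnant group (NP, n = 5). Each cow gave 1 library and is 1 replicate, and no cow received a treatment that the other group did not. Cow P617 is labelled pregnant and was kept as P, although the study's sequencing records name it as non-pregnant, so results are also given without it.

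Amino acids cross the cell membrane only through carriers, and in ruminants the endometrium moves them from maternal blood into the uterine fluid that feeds the free-living embryo. Carriers differ in their substrates, in whether they use the sodium gradient to concentrate an amino acid or exchange one amino acid for another, and in the membrane they occupy. Several SLC7 carriers reach the membrane only when bound to a heavy chain of the SLC3 family. Some SLC36 and SLC38 members sit on lysosomes, where amino acid levels are reported to the growth kinase mTORC1.

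Values are normalized counts, that is, reads counted per gene divided by a size factor per cow. Since transcript lengths were not used here, levels are compared between cows and not between genes. The libraries held between 9290949 and 13569085 reads on genes per cow, and 1 read was worth 0.784 to 1.14 normalized counts. Differences are log2 fold changes, NP over P, from limma fitted to log2(normalized count + 1) of all 15081 genes that reached a mean of 5, with the Benjamini-Hochberg adjustment over all of them.

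Cows P617 and P1541 stood apart in the tissue that their libraries represent. The mean log2 level of 14 epithelium markers was 6.93 in P617 and 8.80 in P1541, whereas it was 9.23 to 10.5 in the other 9 cows. EPCAM, an adhesion molecule of epithelia, had 269 normalized counts in P617, 2110 in P1541 and 2385 to 4719 in the others, so epithelial transcripts were low but present. The mean log2 level of 9 smooth muscle markers was 13.2 in P617, 12.9 in P1541 and 12.6 in NP638, and 10.3 to 11.9 in the other cows. One listed smooth muscle marker, CASQ2, went the other way and was at 0 in P617 and P1541. The mean log2 level of 10 stroma markers was 13.99 in P617 and 13.90 in P1541, and 12.43 to 13.87 in the other cows. In bulk tissue, fewer cells of a type and less RNA per cell cannot be told apart.

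**Figure D1:**
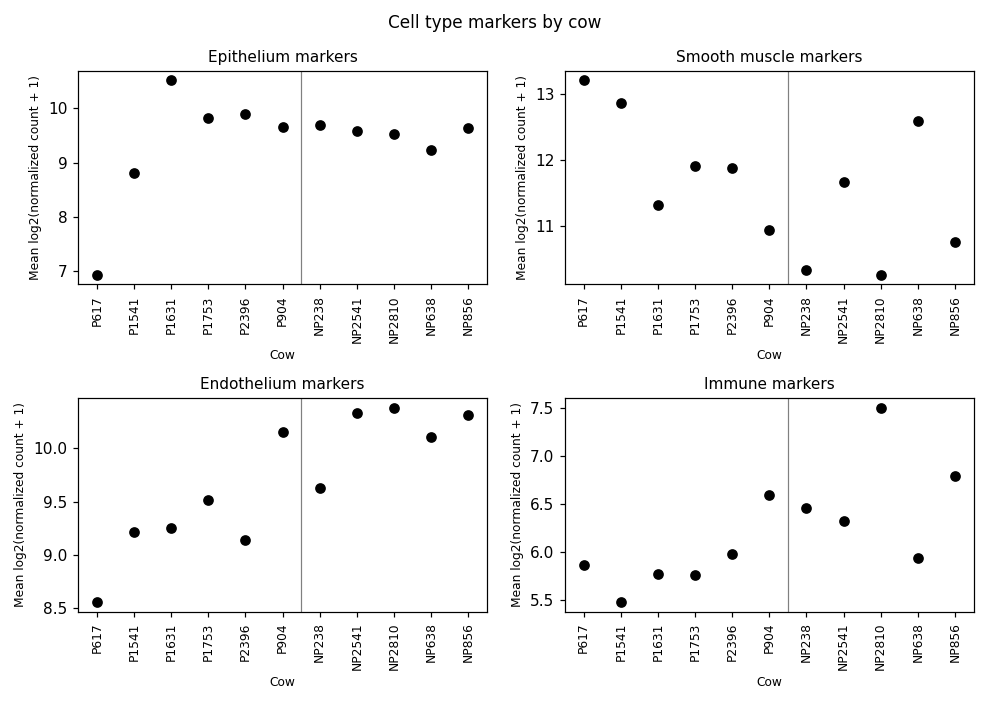
Mean log2(normalized count + 1) of the epithelium, smooth muscle, endothelium and immune markers in each of the 11 cows, 1 point per cow, P cows left of the line and NP cows right of it. P617 has the lowest epithelium value (6.93) and the highest smooth muscle value (13.2), and P1541 is second in both.

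No amino acid transporter passed the test between P and NP cows. An adjusted p-value under 0.1 was found for 0 of the 44 genes, as for 0% of all genes tested. An unadjusted p-value under 0.05 was also found for 0 of the 44, beside 7.84% of all genes tested. The groups overlapped in every one of the 44, while they did not overlap in 1.09% of all genes. With edgeR's quasi-likelihood test on the recovered reads, 1 transporter had an unadjusted p-value under 0.05, beside 7.63% of all genes, and with DESeq2 3 did, beside 9.75%. DESeq2 placed 0 of the 44 under an adjusted p-value of 0.1, beside 1.33% of all genes.

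The direction leaned towards NP cows without passing a test in any gene. The log2 fold change was above 0 in 31 of the 44 transporters, beside 50.2% of all genes, and its median was 0.20 over the transporters and 0.0018 over all genes. Without P617 the median over the transporters was 0.084 with 29 of 44 above 0, and without P617 and P1541 it was 0.058 with 25 of 44 above 0. The median over all genes without P617 was -0.0202. The share of all genes above 0 is not given for these smaller sets of cows. By family, the NP mean log2 level was the higher for 3 of 4 SLC1, 1 of 2 SLC3, 9 of 14 SLC6, 6 of 9 SLC7, 4 of 4 SLC36, 7 of 9 SLC38 and 1 of 2 SLC43 genes. The 95% interval lay between -1 and 1, so that a change of over 2-fold in either direction was outside it, for 19 of the 44 genes, beside 62% of all genes. For the remaining genes the spread among cows left larger differences possible. Leaving out P617 changed the sign of the fold change for 12 of the 44 genes, beside 18.3% of all genes.

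**Figure D2:**
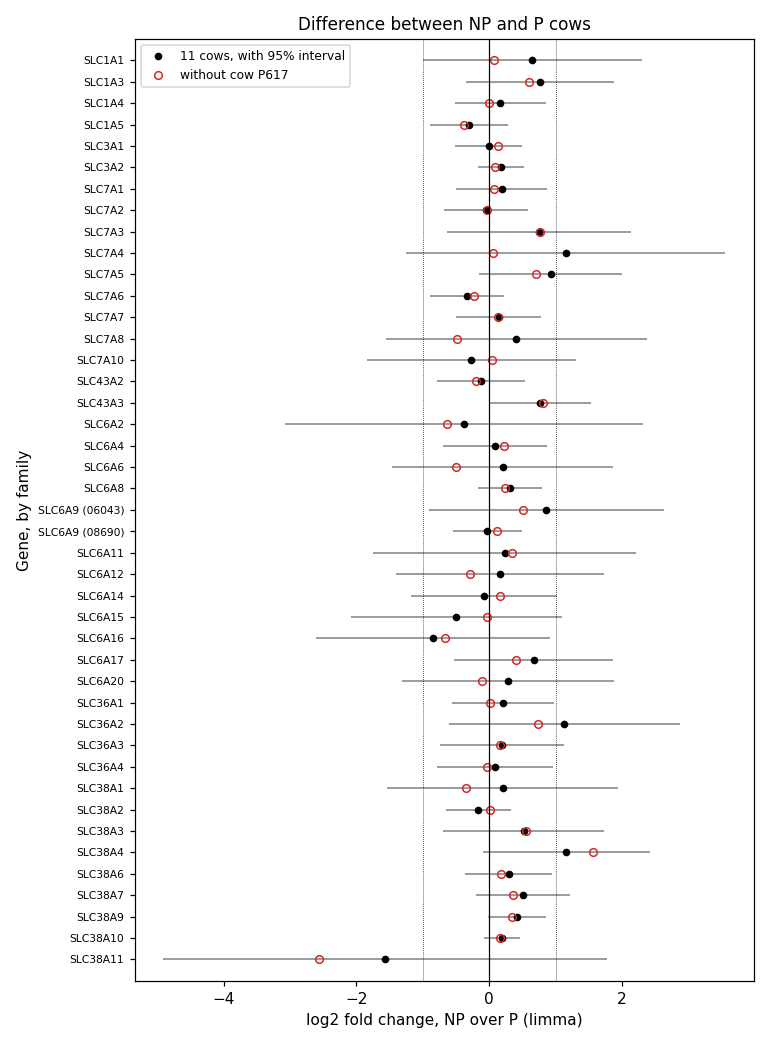
Log2 fold change, NP over P, of 43 of the 44 transporters by family, with filled points and 95% intervals from all 11 cows and open red points without P617. None of the 44 had an unadjusted limma p-value under 0.05, and 30 of the filled points lie above 0.

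The heavy chains differed in how evenly they were expressed among cows. SLC3A2, the heavy chain that carries the light chains of the leucine and arginine exchangers to the membrane, ranged from 1132 to 2093 in P cows (median 1542), and it was 1458, 1663, 1964, 1663 and 1971 in NP cows. Only 27.2% of the 10834 genes that reached a mean of 100 varied less among the 9 cows other than P617 and P1541. Its log2 fold change was 0.18 with a 95% interval from -0.17 to 0.53. SLC3A1, the heavy chain of the cystine and dibasic amino acid carrier of kidney and gut, ranged from 87.6 to 206 in P cows and from 107 to 146 in NP cows. P617 had the highest SLC3A1 value of all cows, and 58.3% of the same genes varied less than SLC3A1 among the 9 cows. SLC7A9, the light chain known to pair with SLC3A1, stayed below the mean of 5.

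The exchangers for large neutral amino acids are light chains of SLC3A2, and their transcripts did not move together. SLC7A5 (ENSBTAG00000006731), the leucine exchanger LAT1 of growing cells, was 186, 224, 316, 415, 605 and 1202 in P cows and 366, 475, 997, 1180 and 1221 in NP cows. A group of 4 cows, P904 and the NP cows NP2541, NP2810 and NP856, sat between 997 and 1221, and the other 7 at or below 605. The means were 491 ± 379 (SD, n = 6) in P and 848 ± 401 (SD, n = 5) in NP. The log2 fold change was 0.93 (SE 0.491), with a limma adjusted p-value of 0.715 and a two-sided exact permutation p-value of 0.132. Without P904 it was 1.25, with a limma adjusted p-value of 0.295, without P617 and P1541 it was 0.57 (adjusted 0.758), and with the smooth muscle score as covariate it was 0.42 (adjusted 0.999).

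By summed counts, endothelium and immune markers were both high in the cows with high SLC7A5. The summed normalized counts of the 9 endothelium markers were 13448 in P904, 14616 in NP2541, 14712 in NP2810, 14504 in NP856 and 12280 in NP638, and 4280 to 8403 in the other 6 cows. NP638 was the exception, with 366 normalized counts of SLC7A5. Of the 9 endothelium markers, 8 had an unadjusted p-value under 0.05, beside 7.84% of all genes, all with the higher level in NP cows, and 0 had an adjusted p-value under 0.1. PECAM1, an adhesion molecule of endothelium, was 809 ± 265 (SD, n = 6) in P and 1139 ± 177 (SD, n = 5) in NP cows. The summed normalized counts of the immune markers were 1096 in P904, 973 in NP2541, 1846 in NP2810 and 1270 in NP856. In the other cows, NP638 included, they were 494 to 934, the highest being NP238. By mean log2 level the immune markers were 6.46 in NP238 and 6.32 in NP2541, so the order of these cows depends on the measure. The part of endothelium or of immune cells in the SLC7A5 values was not tested.

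SLC7A8 (ENSBTAG00000007415), the exchanger LAT2 of small and large neutral amino acids, was 35.0 in P617, 1019 in P1541 and 1187, 1728, 1917 and 2005 in the other P cows. In NP cows it was 946, 957, 975, 1044 and 1600. Thus 3 P cows were above every NP cow, 4 of the 5 NP cows lay within a narrow band, and P617 was 33.9-fold below the median of the 9 other cows. With all cows the mean count was higher in P (1315 ± 742, SD, n = 6) than in NP (1104 ± 280, SD, n = 5), while the mean of the log2 values, which the low cow pulls down, was higher in NP by 0.41 (SE 0.898, adjusted p-value 0.929, limma).

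Leaving out P617 turned the SLC7A8 difference to -0.49 (SE 0.217), higher in P, with an unadjusted limma p-value of 0.0452 and an adjusted one of 0.539. The two-sided exact permutation p-value for the same 10 cows was 0.0635, where the smallest possible is 0.00794. Without P617 and P1541 the difference was -0.63 with an adjusted limma p-value of 0.264. Without P617, 2 of the 44 transporters had an unadjusted p-value under 0.05, SLC7A8 and SLC38A4, beside 8.95% of all genes. Without both cows 4 did, SLC7A8, SLC6A6, SLC38A4 and the SLC6A9 row with the higher counts, beside 11.1% of all genes.

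SLC43A2, the facilitative carrier LAT4 that lets branched chain amino acids and phenylalanine leave cells, ranged from 74.6 to 122 in P and from 40.5 to 134 in NP cows, and its log2 fold change was -0.12. SLC43A3 (ENSBTAG00000010060), a family member known as a purine nucleobase carrier and not as an amino acid carrier, had the lowest unadjusted p-value of the 44. It was 128, 191, 254, 262, 273 and 328 in P cows and 148, 426, 485, 490 and 605 in NP cows. In all, 4 NP cows were above every P cow, and NP2810 was below 5 of the 6 P cows. The means were 239 ± 69.9 (SD, n = 6) in P and 431 ± 171 (SD, n = 5) in NP.

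The SLC43A3 log2 fold change was 0.77 (SE 0.353), with an unadjusted limma p-value of 0.0518 and an adjusted one of 0.641. The two-sided exact permutation p-value was 0.0844, where the smallest that 6 against 5 cows allow is 0.00216. Without NP2810 the fold change was 1.11 and the adjusted limma p-value 0.468, but this cow was singled out after its low value was seen. The summed endothelium markers were 14712 in NP2810, 14616 in NP2541 and 14504 in NP856, where SLC43A3 was 148, 490 and 426. The part of endothelium in the SLC43A3 values was not tested.

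**Figure D3:**
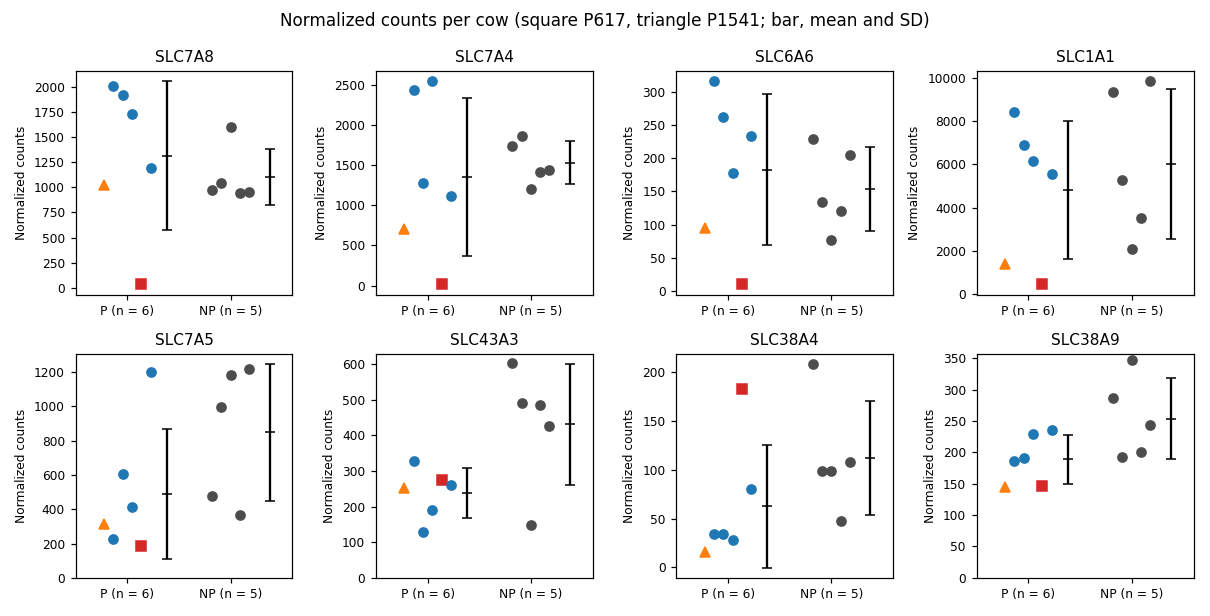
Normalized counts of 8 transporters in each P cow (n = 6) and NP cow (n = 5), with P617 as a red square, P1541 as an orange triangle and the mean and SD as a bar beside each group. P617 is lowest for SLC7A8 (35.0), SLC7A4, SLC6A6, SLC1A1 and SLC7A5, while for SLC38A4 it is the highest P cow (183).

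The group means of the arginine and lysine carriers differed by less than the spread among cows. SLC7A1, the widely expressed arginine and lysine carrier CAT1, was 153 ± 62.2 (SD, n = 6) in P and 169 ± 52.5 (SD, n = 5) in NP cows. SLC7A2, its inducible relative, was 73.7 ± 23.0 and 71.8 ± 25.6, with a 95% interval of the log2 fold change from -0.68 to 0.59. SLC7A3, another carrier of this kind, was near the lower limit of the description at 4.13 ± 3.49 and 6.86 ± 4.77.

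SLC7A6 and SLC7A7 exchange arginine and lysine for neutral amino acids and need SLC3A2. SLC7A6 was 222 ± 85.1 (SD, n = 6) in P cows, where P1541 (338) and P617 (307) were the highest of all 11 cows, and 166 ± 21.8 (SD, n = 5) in NP cows. SLC7A7 was 139 to 217 in 5 P cows and 473 in P904, against 175 to 257 in NP cows. Neither fold change was distinguishable from 0 by limma, at -0.34 for SLC7A6 (adjusted p-value 0.799) and 0.15 for SLC7A7 (adjusted p-value 0.922).

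SLC7A4 (ENSBTAG00000009145), a relative of the arginine carriers for which transport is poorly established, was the transporter that set P617 furthest apart. It was 14.7 in P617, 710 in P1541, and 1113, 1283, 2438 and 2550 in the other P cows, against 1204, 1415, 1437, 1738 and 1862 in NP cows. P617 was 97.8-fold below the median of the 9 other cows. The log2 fold change of 1.15 (SE 1.10) with all cows was 0.07 without P617. SLC7A10, a carrier of small neutral amino acids, was 16.9 in P617 and 18.3 in NP856 and at most 12.6 in the others.

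The SLC1 family holds carriers of the acidic amino acids and sodium-dependent exchangers of neutral ones. SLC1A1, the glutamate and aspartate carrier of epithelia, was 446 in P617, 1380 in P1541 and 5546 to 8419 in the other 4 P cows. In NP cows it was 2063, 3529, 5295, 9373 and 9862, so the NP cows spanned both sides of these 4 P cows. The log2 fold change was 0.65 (SE 0.755, adjusted limma p-value 0.865) with all cows, 0.08 without P617 and -0.38 without P617 and P1541. SLC1A3, a glutamate carrier best known from glia, was low, at 5.79 ± 3.72 (SD, n = 6) in P and 9.52 ± 4.33 (SD, n = 5) in NP.

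For the neutral exchangers the groups also differed by less than the spread among cows. SLC1A4, which exchanges alanine, serine and cysteine, was 559 ± 276 (SD, n = 6) in P and 591 ± 164 (SD, n = 5) in NP. SLC1A5, which brings glutamine into cells, was 251 ± 62.4 and 209 ± 71.9, with a log2 fold change of -0.31 and a 95% interval from -0.89 to 0.28.

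The SLC38 family contains the sodium-coupled carriers of glutamine and alanine. SLC38A2, the carrier SNAT2 that cells induce when amino acids run short, varied least of the 21 transporters with a mean of at least 100 when P617 and P1541 were set aside. It was 2680 to 3347 in 8 of the 9 cows other than P617 and P1541 and 2347 in P2396, and 20.3% of the genes that reached a mean of 100 varied less. P617 (6165) and P1541 (4417) were the highest 2 cows. SLC38A1, the glutamine carrier SNAT1, behaved the other way, with 39.5 in P617, 151 in P1541 and 98.9 to 824 in the other cows. The SLC38A1 fold change had a wide 95% interval, from -1.53 to 1.95, and it was -0.35 without P617.

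SLC38A4 (ENSBTAG00000014197), the carrier SNAT4 of placenta and liver, was 15.5, 28.0, 34.2, 34.3, 80.5 and 183 in P cows and 47.7, 98.8, 98.9, 108 and 208 in NP cows. The highest P value belonged to P617, and 4 of the other 5 P cows were below every NP cow. For SLC38A4 the log2 fold change was 1.16 (SE 0.577), with an adjusted limma p-value of 0.678 and a two-sided exact permutation p-value of 0.102. Without P617 it was 1.57, with an unadjusted limma p-value of 0.00528, an adjusted one of 0.288 and an exact permutation p-value of 0.0159. SLC38A4 is 1 of the 2 transporters named above that passed the unadjusted threshold without this cow.

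Of the members tied to lysosomes, SLC38A9 (ENSBTAG00000033313), the arginine sensor that acts on mTORC1, was 145, 146, 186, 190, 229 and 236 in P cows and 192, 200, 243, 287 and 347 in NP cows. Of the NP cows, 3 were above every P cow. The means were 189 ± 39.0 (SD, n = 6) and 254 ± 64.3 (SD, n = 5). For SLC38A9 the log2 fold change was 0.42 (SE 0.200), with an unadjusted limma p-value of 0.0602, an adjusted one of 0.660 and a two-sided exact permutation p-value of 0.0736. It was 0.35 without P617, 0.24 without P617 and P1541 and 0.14 with the smooth muscle score as covariate.

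SLC38A7, a glutamine exporter of lysosomes, was 363 ± 127 (SD, n = 6) in P and 530 ± 216 (SD, n = 5) in NP cows (adjusted limma p-value 0.765). Its fold change of 0.51 was 0.77 without NP2810, 0.32 without NP238 and 0.25 without P617 and P1541. SLC38A10, a less studied relative, was 839 ± 128 and 959 ± 111, with a 95% interval of the log2 fold change from -0.08 to 0.47. SLC38A6, of uncertain substrate, ranged from 53.1 to 140 over all cows. SLC38A3, a glutamine carrier of liver and brain, ranged from 2.01 to 25.5. SLC38A11 was the most uneven of the family, at 275 in P1753, 113 in NP2810, 0 in P617 and NP856, and below 80 in the other 7 cows. A count of 0 allows up to 3 reads, which is 3.39 normalized counts in P617 and 3.23 in NP856, by counting error alone.

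The SLC36 carriers couple small amino acids to protons. SLC36A1, which works at lysosomes and the gut surface, was 39.4 ± 16.3 (SD, n = 6) in P and 43.9 ± 12.4 (SD, n = 5) in NP cows, and P617 was lowest at 18.1. SLC36A2, a glycine and proline carrier, was 0 to 7.05 in P cows and 1.01, 3.04, 9.68, 12.2 and 41.6 in NP cows, the highest being NP2541. SLC36A4, a high-affinity carrier of proline and tryptophan, was 26.5 to 69.9 in 10 cows and 112 in P1631. SLC36A3 was 2.87 to 16.6. All 4 had an NP over P log2 fold change above 0, from 0.09 to 1.13, and the lowest unadjusted limma p-value was 0.181. Without P617 the value was -0.032 for SLC36A4 and 0.014 for SLC36A1, and for SLC36A2 it was 0.74 without P617 and 0.56 without NP2541.

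In the SLC6 family of sodium and chloride coupled carriers, SLC6A8, the creatine carrier, had the highest mean count, which is not adjusted for length, with 660 ± 116 (SD, n = 6) in P and 849 ± 243 (SD, n = 5) in NP cows. NP2810 was lowest at 442, and the other 4 NP cows (818, 942, 1005 and 1039) were above every P cow. For SLC6A8 the log2 fold change was 0.32 (SE 0.220) with an adjusted limma p-value of 0.778. It was 0.185 without P617 and P1541. Without NP2810 it was 0.54, with an unadjusted limma p-value of 0.00417 and an adjusted one of 0.488. That omission was singled out after NP2810 was seen to be lowest, and leaving out the lowest NP cow raises the fold change by itself. The share of all genes under 0.05 without NP2810 is not given. NP2810 was thus the exception among NP cows for SLC6A8 as it was for SLC43A3.

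SLC6A6 (ENSBTAG00000011088), the taurine carrier, was 10.2 in P617, 94.9 in P1541 and 178, 234, 263 and 316 in the other P cows, against 76.5, 121, 134, 205 and 230 in NP cows. P617 was 20.2-fold below the median of the 9 other cows. The fold change was 0.20 with all cows and -0.49 without P617. Without P617 and P1541 it was -0.76, with an unadjusted limma p-value of 0.0351.

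The glycine carrier symbol SLC6A9 was given to 2 rows that went opposite ways in the cows with low epithelium markers. The row with the higher counts (ENSBTAG00000008690) was 508 in P617, 496 in P1541 and 230 to 375 in the other cows. The row with the lower counts (ENSBTAG00000006043) was 2.26 in P617, 0.968 in P1541 and 9.13 to 45.2 in the others. Which of the rows holds the full gene was not examined, and reads shared between them cannot be traced in normalized counts.

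SLC6A20, the proline carrier, varied most of the 21 transporters with a mean of at least 100 among the 9 cows other than P617 and P1541. In these it ranged from 66.7 in NP2541 to 738 in P904 and 1143 in NP856, and 98.9% of genes with such a mean varied less. It was 66.6 in P617. SLC6A14, a carrier of neutral and cationic amino acids, was 95.5 ± 66.5 (SD, n = 6) in P and 78.1 ± 34.2 (SD, n = 5) in NP cows, with P617 (177) and P1631 (175) highest. SLC6A15, a carrier of branched chain amino acids and proline best known from neurons, was 111 in P617 and 4.03 to 35.8 in the others. SLC6A17, a neutral amino acid carrier of synaptic vesicles, was lowest in P617 at 3.39. SLC6A16, without a known substrate, had the lowest log2 fold change of the family, -0.84 (23.2 ± 17.0 in P against 9.43 ± 5.93 in NP), with an adjusted limma p-value of 0.835.

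Several SLC6 members move transmitters rather than amino acids of protein. SLC6A2, the noradrenaline carrier, was 255 in P1753 and at most 40.9 in the other 10 cows. SLC6A4, the serotonin carrier, ranged from 9.63 to 28.2. SLC6A11, a carrier of the inhibitory transmitter GABA, was 0 to 33.4. SLC6A12, a carrier of betaine and GABA, was 0 to 12.9.

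A further 9 transporters were below the mean of 5 normalized counts and were not tested. They were SLC1A7, SLC6A5, SLC6A7, SLC6A13, SLC6A19, SLC7A9, SLC7A11, SLC7A14 and SLC38A8, none with more than 7 reads in any cow. SLC7A11, the cystine carrier that feeds glutathione synthesis, had at most 4 reads per cow. SLC7A14 had 0 reads in every cow, which at 3 reads allows up to 2.35 to 3.43 normalized counts per cow.

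P617 differed from the 9 cows other than itself and P1541 by 4-fold or more downward, that is at least 2 log2 units below their median, for 11 of the 44 transporters, beside 12.1% of all genes. These were SLC7A4, SLC7A8, SLC6A6, SLC1A1, SLC38A1, SLC6A20, SLC6A17, SLC6A12, SLC36A2, SLC38A11 and the SLC6A9 row with the lower counts. SLC6A12 and SLC36A2 were 0 in P617, which allows up to 3.39 normalized counts. Their medians in the 9 cows were 4.79 and 5.75, so a 4-fold difference is uncertain for them. P617 was at least 1 log2 unit above the median for 6 of the 44, beside 12.1% of all genes. These were SLC6A15, SLC7A10, SLC6A16, SLC38A4, SLC6A14 and SLC38A2. P1541 was at least 2 log2 units below for 3 of the 44, beside 3.59% of all genes, and at least 1 unit above for 4, beside 6.35%. The epithelium and smooth muscle markers of these cows are given above, and their part in these values was not tested.

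**Figure D4:**
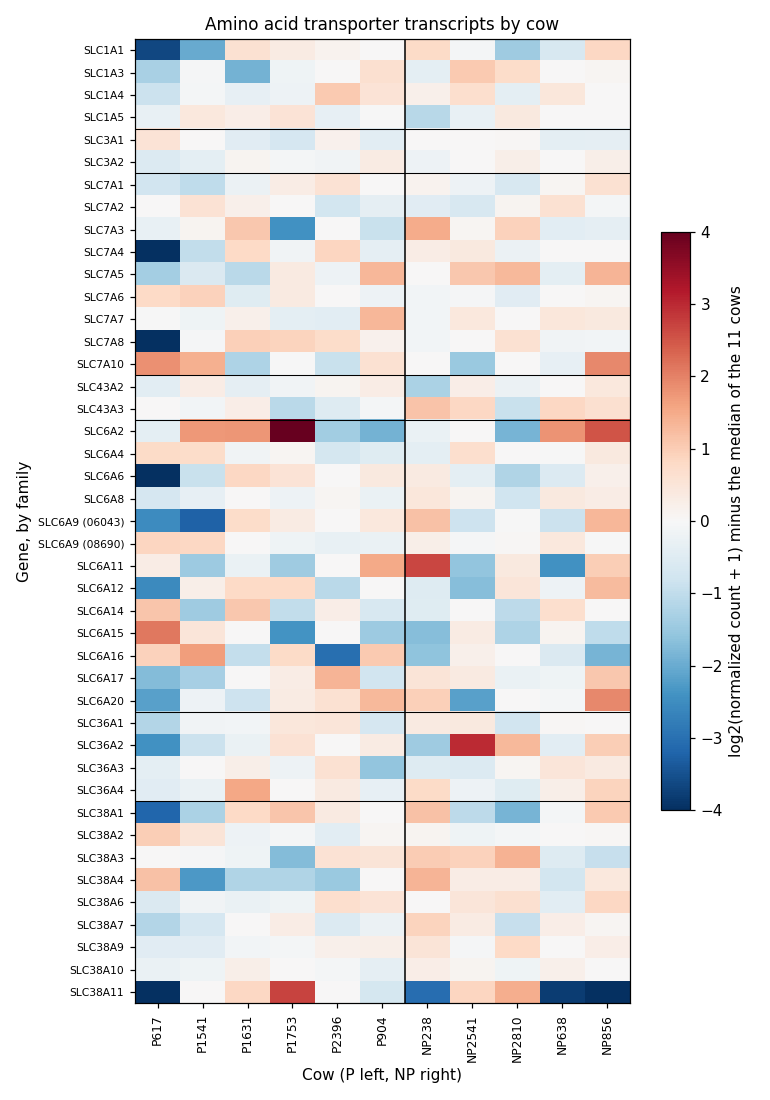
Log2(normalized count + 1) of 43 of the 44 transporters in each cow minus the median of the 11 cows, by family, with red for higher, blue for lower and the colour scale cut at -4 and 4. P617 is the column with the most dark blue cells, SLC7A4 and SLC7A8 among them.

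Pairs of transporters were compared across the 9 cows other than P617 and P1541, and none passed the adjusted test. Of the 210 pairs among the 21 transporters with a mean of at least 100, 15 had an unadjusted exact permutation p-value under 0.05 and 0 an adjusted one under 0.1. The closest pair was SLC1A1 and SLC38A1, with Pearson's r of 0.880 (exact permutation p = 0.00273, adjusted 0.238) and Spearman's rho of 0.900 (exact permutation p = 0.00203, adjusted 0.426). Leaving out the 2 cows farthest from the median of SLC1A1 gave r = 0.819. For SLC43A3 and SLC6A8, both low in NP2810, r was 0.800 (exact permutation p = 0.00658, adjusted 0.345), rho was 0.833 (exact permutation p = 0.00827, adjusted 0.579), and r without the 2 farthest cows was 0.717. The values of both genes of a pair come from the same libraries, and P and NP cows were pooled.

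No gene of the lists of other carriers, amino acid sensing pathways and amino acid enzymes had an adjusted p-value under 0.1. The counts at an unadjusted p-value under 0.05 are to be read against the 7.84% of all genes that had one, and the genes behind them are given as values only. Of 13 tested carriers outside the 7 families, 1 had an unadjusted p-value under 0.05. This was SLC15A3, a lysosomal carrier of histidine and small peptides found in immune cells, with 21.7 to 125 normalized counts in P and 77.1 to 220 in NP cows. The NP over P log2 difference was 1.54 (SE 0.425) with an adjusted limma p-value of 0.333. Of the 9 immune markers tested, 5 had an unadjusted p-value under 0.05 (7.84% of all genes did), all higher in NP cows, and the part of immune cells in the SLC15A3 values was not tested.

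Of 30 tested genes of amino acid sensing by the mTORC1 and GCN2 pathways, 2 had an unadjusted limma p-value under 0.05, beside 7.84% of all genes. SESN3, a sestrin that restrains mTORC1, was 91.9 to 236 in P and 217 to 308 in NP cows, with a log2 fold change of 0.94 (adjusted limma p-value 0.323). DEPDC5, a subunit of the complex that turns off mTORC1 when amino acids are scarce, had a log2 fold change of 0.28 (adjusted limma p-value 0.638). Of 19 tested genes of the amino acid shortage response and of serine and asparagine synthesis, 0 had an unadjusted p-value under 0.05.

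Of 23 tested enzymes of arginine, glutamine, branched chain amino acid and polyamine metabolism, 2 had an unadjusted limma p-value under 0.05, beside 7.84% of all genes. BCKDHB, a subunit of the branched chain ketoacid dehydrogenase, was 371 to 598 in P and 298 to 424 in NP cows, with a log2 fold change of -0.44 (adjusted limma p-value 0.467). NOS3, the nitric oxide synthase of endothelium, was 156 ± 79.8 (SD, n = 6) in P and 306 ± 94.0 (SD, n = 5) in NP cows, with a log2 fold change of 1.13 (adjusted limma p-value 0.563).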

How the data were processed

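Endometrial RNA of 6 P and 5 NP cows was sequenced as polyA-selected paired-end libraries. The authors filtered the reads, mapped them with Bowtie2 2.1.0 in local mode to the masked Bos taurus UMD3.1 assembly, counted reads per gene with HTSeq 0.5.4p2 and divided the counts by DESeq2 1.12.1 size factors. The gene annotation and the strand setting are not given in the sources used here, so overlapping genes and near-identical copies are uncertain. The deposited values, in 1 table, are therefore a normalized signal per gene and cow. Divided by the value of 1 read in each cow, 100% of them came out whole (tolerance 0.001), which gave back the reads. Rows that name no gene numbered 0. The cows were grouped by GEO's labels.

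The values were taken to log2(value + 1), which understates the change of low genes. Genes with a mean of at least 5 were tested with limma 3.58.1 (trend) in R 4.3.3, with the Benjamini-Hochberg adjustment at 0.1, and single genes also with two-sided exact permutation tests. Intervals are 95% intervals of the limma estimate. Alternatives were other pseudocounts, filters, scaling, edgeR 4.0.16 and DESeq2 1.42.0 on the recovered reads, marker scores as covariates, and leaving out cows. The limma step was run on simulated counts with the same setting of spread for every gene and no outlying cow. That run does not show how the step performs with cows as far apart as P617. Depth per cow is given in the report, and limits for a count of 0 cover counting error only.

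The transporters and the gene lists were chosen with earlier results of these data known. All members enter the counts, the values of 1 member are not reported here, and those named with values follow a written rule: the member with the highest mean count in each family, the heavy chains, carriers known from uterus or placenta, and list genes with an unadjusted p-value under 0.05. Others named for a single high or low cow were chosen after their values were seen. Genome coordinates and sequences are not given, because no reference of the assembly used for mapping was used here.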

Additional observations from a re-analysis of the deposited data

Results flagged for a closer look

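In each of the 44 transporters, the highest and the lowest cow of each group were compared with the rest of that group by Dixon's ratio on log2(normalized count + 1). Of the 88 groups of cows, 8 held a cow beyond the 95% limit, in 7 genes. Chance alone gives about 1 in 20 for independent groups, whereas these 88 share the same cows. The share over all genes is not given, so the count does not set the transporters apart. Across all genes, P617 was at least 2 log2 units below the median of the 9 cows for 12.1%.

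P617 was set apart from the other P cows by low values in 3 genes. SLC7A4 was 14.69 in P617, with the next P cow at 710.4. SLC7A8 was 35.02, with the next at 1019. SLC6A6 was 10.17, with the next at 94.85.

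NP2810 was set apart from the other NP cows in 3 genes, in both directions. SLC43A3 was 147.8 in this cow, with the next NP cow at 425.9. SLC6A8 was 442.4, with the next at 817.9. SLC7A8 was higher, at 1600, with the next at 1044.

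SLC7A7 was 473.3 in P904, with the next P cow at 217.0. SLC38A3 was 2.013 in P1753, with the next at 7.994, and this gene rests on few reads.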

How the results depend on the processing

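In most of the 22 alternatives, no gene of any kind had an adjusted p-value under 0.1. The lack of such transporters does not set them apart there. Some genes had one with DESeq2, without P904, without P617 and P1541 and with the epithelium score. Under all 22 alternatives, 0 transporters had an adjusted p-value under 0.1. The number with an unadjusted p-value under 0.05, 0 as reported, was 1 without a filter on the mean, with TMM scaling, with edgeR and with the smooth muscle score as covariate, 2 with the epithelium score, 3 with DESeq2, 4 without P617 and P1541, 2 without P617, P1541 and NP638 (chosen after seeing the data) and 0 to 3 over the fits that omit 1 cow. Of all genes, the share under 0.05 was 7.12% without a filter, 7.73% with TMM scaling and 7.63% with edgeR. It was 9.75% with DESeq2 and 11.1% without P617 and P1541. Among the fits that omit 1 cow it was, for example, 5.86% without NP238, with 0 transporters, and 10.3% without P904, with 2. The share is not given for the marker scores or for the fit without 3 cows, so those counts cannot be read against it. The median log2 fold change stayed between 0.03 and 0.32, and 24 to 33 of the 44 genes had it above 0 (21 of the 32 left by a mean of at least 20). The share of all genes above 0 was 50.2% in the main fit and is not given for the alternatives. Of 16 genes followed, 11 kept their direction under each alternative they entered (SLC36A2 and SLC6A16 are below the mean of 20 and have no value with that filter). SLC7A8 was -0.24 with edgeR, -0.25 with DESeq2, -0.63 without P617 and P1541, -0.58 without the 3 cows, -0.45 with the smooth muscle score, -0.033 with the epithelium score and -0.49 to 0.67 leaving out 1 cow. In the same order SLC6A6 was -0.24, -0.25, -0.76, -0.70, -0.60, -0.17 and -0.49 to 0.47. SLC38A1 was -0.72 without P617 and P1541, -0.74 without the 3 cows, -0.48 with the smooth muscle score, -0.12 with the epithelium score and -0.35 to 0.64 leaving out 1 cow. SLC7A4 was -0.19 and -0.17 without the 2 and the 3 cows. SLC1A1 was -0.38 and -0.24 without them, and -0.18 with the smooth muscle score. The cause was not tested. No paired analysis was possible because the groups share no replicate numbers. Depth limits the genes near a mean of 5, where a cow has a few reads.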

Other observations

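The rule left out 2 rows with joined symbols, and they are in none of the counts above. SLC1A2 with LOC789207 (ENSBTAG00000012628), a glutamate carrier best known from glia, had at most 2.26 normalized counts in any cow. The other is SLC38A5 with LOC789368 (ENSBTAG00000011854). SLC38A5 is known as a carrier of glutamine, asparagine and histidine. The row had 162 normalized counts in P1541 and 87.0 in P617, and 25.1 to 67.0 in the other 9 cows, so the cows with the lowest epithelium markers had its highest values, as they did for SLC38A2.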
